A study of Mus musculus with 19 samples.

Results

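The GABA interneurons of the striatum were followed through 10 marker genes, Sst, Npy, Nos1, Pvalb, Calb2, Th, Vip, Lhx6, Pthlh and Cck, which were taken by name from the 54232 genes of the deposited count table and were all among the 18521 genes with enough reads to test. Striatal RNA was sequenced from 7 WT mice and from 4 mice of each knock-in line (KI-96, KI-571, KI-FL), all 6 months old and of the C57/BL/6 strain background, so that the mutant alleles could be compared with WT and with each other. KI-FL mice express full-length mutant huntingtin from the mouse Htt gene, KI-571 mice an N-terminal fragment of it, and KI-96 mice a still shorter N-terminal fragment. The truncated lines were made by CRISPR/Cas9 editing of the HD140Q knock-in allele, KI-571 mice descend from 1 founder and KI-96 mice from 3, and the labels give neither zygosity nor sex. The study reports that KI-96 and KI-571 mice do not survive as homozygotes, so mice of these lines were heterozygous. Each library is the dissected striatum of 1 mouse.

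Most striatal neurons are GABAergic projection neurons, and interneurons are a small minority that controls their firing locally. A first class makes somatostatin, neuropeptide Y and nitric oxide and inhibits the dendrites of projection neurons, a second is fast spiking and makes parvalbumin, and others make calretinin, tyrosine hydroxylase, vasoactive intestinal peptide or cholecystokinin. Several of these genes are also expressed outside the striatum, Cck and Vip in cortex, Calb2 in thalamus and Pvalb in pallidum, so that a bulk sample reads the cells and the tissue borders together. In such samples fewer cells of a type and less RNA per cell cannot be told apart.

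The reads assigned to genes numbered 12669809 to 26388542 in a mouse, with a median of 18202412. Levels are given as CPM, counts scaled to a common library size after TMM normalization, and 3 counts, taken as the floor of detection, corresponded to 0.106 to 0.238 CPM, which covers counting error only. A set of 3 libraries, chosen after the data were seen, stood apart in measures of the library or of cortical RNA. In KI-96 replicate 3, the share of reads matching no counted feature was 24.2%, compared with 11.1% to 16% elsewhere. Whether reads within introns fall in this share is not given. In the same library, genes with up to 1 kb of exon deviated from their median over mice by a median of -1.11 on the log2 scale, against -0.19 to 0.18 in the others. In KI-FL replicate 4, 3186 of the tested genes had no read, against 10 to 222 in the other mice. In WT replicate 3 the 11 genes fixed as markers of cortical excitatory neurons summed to 1720 CPM, against 289 to 842 CPM in the others, where KI-571 replicate 2 had the 842 CPM. For several interneuron genes the fold change without 1 of these libraries is given as well. The defining striatal genes were abundant in every mouse, with 14 projection neuron genes summing to between 5790 and 9740 CPM.

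No interneuron gene passed the test in any genotype. edgeR called 0 of the 10 genes at an adjusted p under 0.05 against WT in any of the 3 lines or in all KI mice, where it called 0.027% (KI-96), 0.0324% (KI-571), 0.194% (KI-FL) and 0.054% (all KI) of all tested genes, and DESeq2 called 0 of 10 in each as well, beside 0.151%, 0.621%, 2.75% and 1.54% of all tested genes in the same order. At an unadjusted p under 0.05, edgeR gave 2 genes in KI-96 mice (7.45% of all genes), 1 in KI-571 mice (7.72%), 1 in KI-FL mice (16.7%) and 1 in all KI mice (12.9%). The genes were Nos1 and Vip in KI-96 mice, Calb2 in KI-571 mice and Vip in KI-FL and in all KI mice. The median log2 fold change of the 10 genes was -0.13 in KI-96, -0.37 in KI-571, -0.39 in KI-FL and -0.34 in all KI mice, with 6, 8, 6 and 7 of the 10 values below 0, while the median of all tested genes lay between -0.028 and 0.017 in the comparisons made here. The 4 comparisons share the WT mice.

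**Figure D1:**
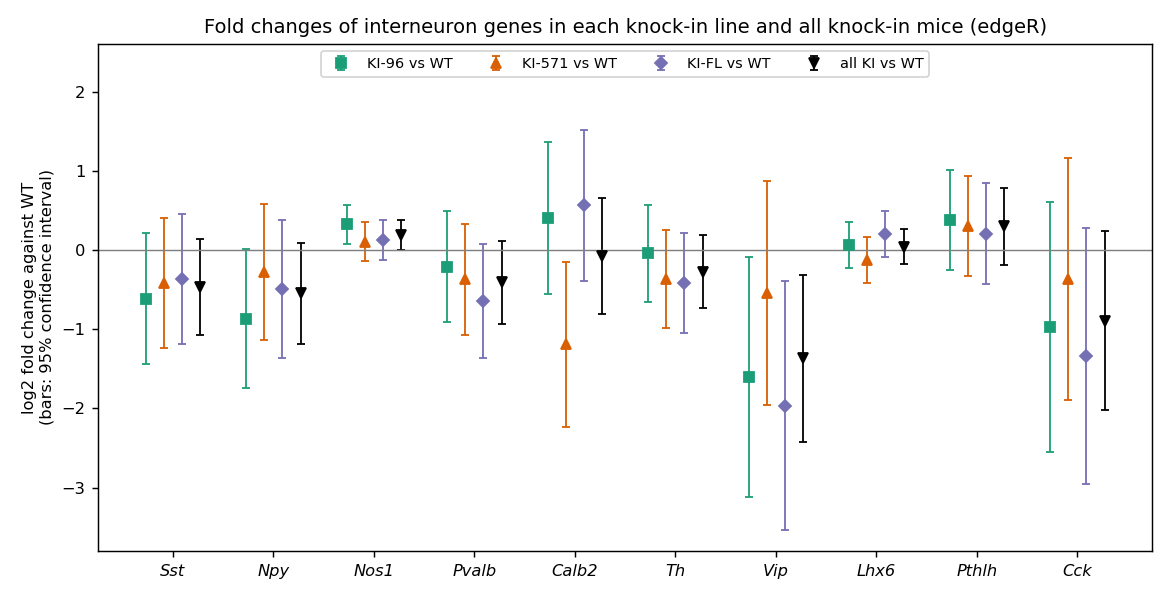
Log2 fold change of each of the 10 interneuron genes (x axis) in KI-96, KI-571, KI-FL and all KI mice against the 7 WT mice, from edgeR. Symbols are the fitted values and bars their 95% confidence intervals, and the widest intervals are those of Vip and Cck while those of Nos1 and Lhx6 are the narrowest.

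The interneuron genes differed among themselves in how far they varied between mice of the same genotype. Within genotypes the SD of log2 CPM was 1.23 for Cck, 1.13 for Vip, 0.89 for Calb2, 0.89 for Npy, 0.84 for Sst, 0.64 for Pvalb, 0.55 for Pthlh and 0.54 for Th, and it was 0.23 for Lhx6 and 0.20 for Nos1, against a median of 0.30 over all tested genes. Among genes of similar level, the spread of Sst ranked at percentile 99.9, that of Npy and Pvalb at 99.8, and that of Cck at 99.7. Lhx6 and Nos1 ranked at 57.8 and 65.9.

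**Figure D2:**
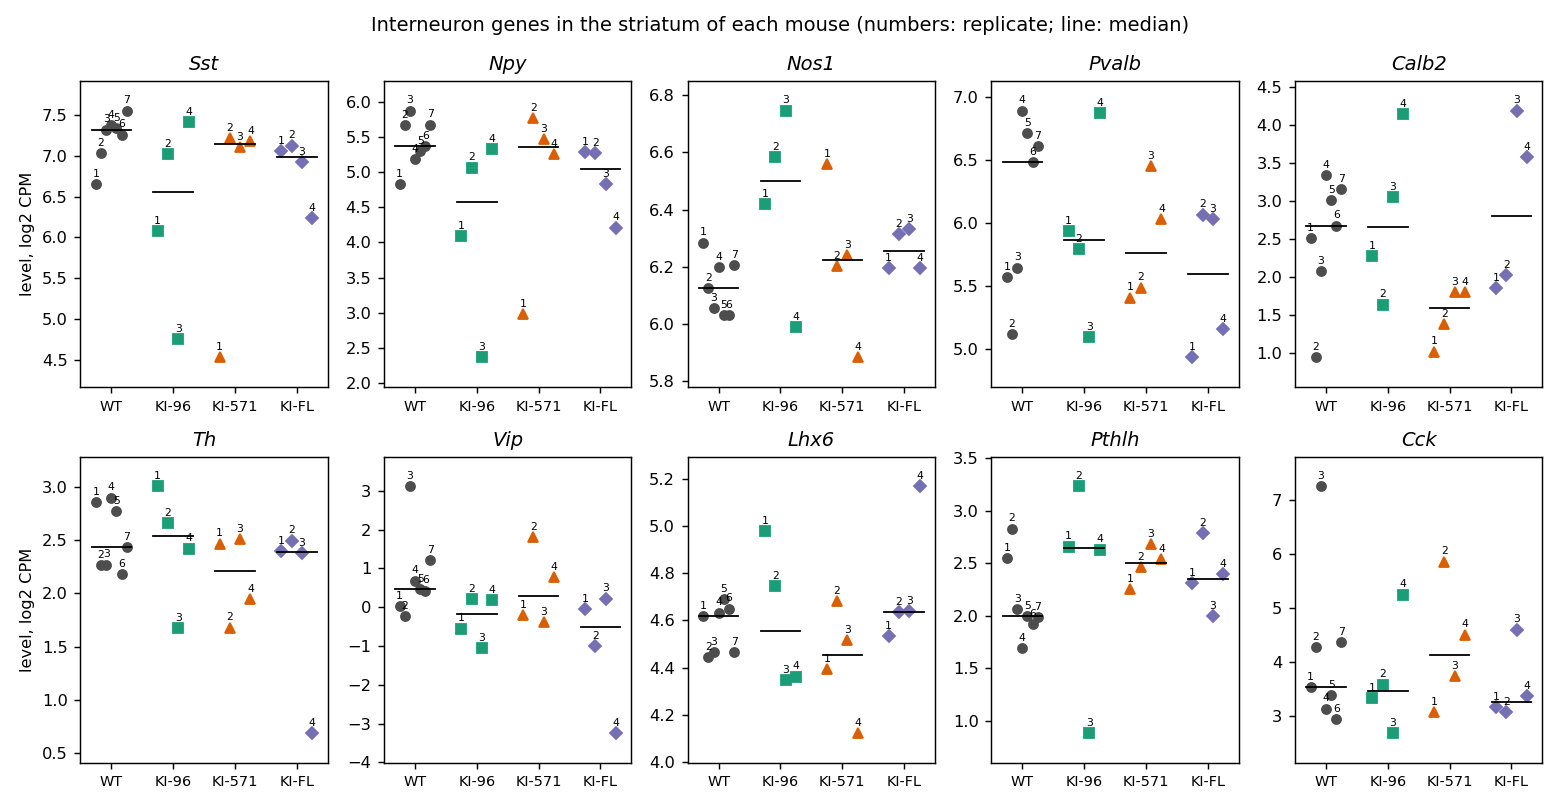
Level of each of the 10 genes (log2 CPM, with a prior count of 2) in each of the 19 mice by genotype. Each point is 1 mouse with its replicate number, and the line is the median of the genotype. KI-96 replicate 3 and KI-571 replicate 1 lie lowest for Sst and Npy, WT replicate 3 highest for Vip and Cck, and the Vip point of KI-FL replicate 4 stands for 0 counts.

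Per kilobase of exon, the scale on which genes can be compared, Sst had the highest level in WT mice with a median of 222 CPM per kb (139 to 261), followed by Pvalb with 85.6 and Npy with 72.8. Cck at 8.79, Nos1 at 6.25, Lhx6 at 5.08, Calb2 at 3.62, Pthlh at 2.40, Th at 2.25 and Vip at 0.37 CPM per kb came next. Sst did not overlap Pvalb, and Nos1 did not overlap Lhx6. All other neighbours in this order overlapped between WT mice, Npy with Cck and Th with Vip through WT replicate 3 alone.

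Sst, which encodes the inhibitory peptide somatostatin, lies on chromosome 16 (23889573 to 23890958, GRCm38, minus strand), and Npy, which encodes neuropeptide Y, on chromosome 6 (49822710 to 49829507, plus strand). With 721 and 566 bases of annotated exon they are the shortest of the 10 genes, and neither shares exon bases with another gene. Since these genes varied together over the mice, the 250 bases before their RefSeq start sites (GRCm38.p6) are shown, each on the strand of its gene, with that of Th, the only other gene among the 9 with a promoter in the RefSeq table (Calb2 has none) that holds the cAMP response element. The Sst sequence is chr16:23890845-23891094 (minus strand), the Npy sequence chr6:49822460-49822709 (plus strand) and the Th sequence chr7:142899996-142900245 (minus strand). Capitals mark the cAMP response element TGACGTCA, the motif bound by the CREB family.
Sst: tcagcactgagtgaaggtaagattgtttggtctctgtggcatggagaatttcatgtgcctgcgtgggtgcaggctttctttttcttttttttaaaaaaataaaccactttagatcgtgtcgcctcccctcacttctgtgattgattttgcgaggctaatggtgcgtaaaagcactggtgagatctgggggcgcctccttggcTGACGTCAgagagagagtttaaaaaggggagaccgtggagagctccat
Npy: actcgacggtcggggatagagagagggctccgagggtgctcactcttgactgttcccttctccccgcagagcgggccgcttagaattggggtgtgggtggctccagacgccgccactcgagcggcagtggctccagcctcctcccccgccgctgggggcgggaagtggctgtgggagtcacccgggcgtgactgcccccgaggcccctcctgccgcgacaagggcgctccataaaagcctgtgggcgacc
Th: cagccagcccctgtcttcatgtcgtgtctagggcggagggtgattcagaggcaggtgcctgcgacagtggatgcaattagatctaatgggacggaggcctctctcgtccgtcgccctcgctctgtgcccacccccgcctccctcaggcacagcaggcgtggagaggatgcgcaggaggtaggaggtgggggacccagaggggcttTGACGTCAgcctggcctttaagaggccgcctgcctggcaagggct
The element starts at position -48 from the start site in Sst and at -45 in Th, and 1.55% of the 32851 RefSeq promoters of this length hold it on either strand (it reads the same on both). Npy holds neither it nor the core TGACG, which 17.8% of promoters hold. Each full element contains this core on both strands, and the core alone was found in Nos1, Vip and Cck. The TATA box TATAAA was found only in Vip among the 9 genes (12.4% of promoters), and the homeodomain core TAATTA in none of them (4.84%). These matches describe the letters in these windows and were not tested against the values.

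In WT mice Sst ranged from 100.5 to 188 CPM with a median of 160. Among KI-96 mice it was 67.5, 130, 26.8 and 170.5 CPM in replicates 1 to 4, among KI-571 mice 22.9, 149, 138 and 145 CPM, and among KI-FL mice 133, 139.7, 121 and 75.1 CPM. The values below the WT range therefore came from 4 single mice, KI-96 replicates 1 and 3, KI-571 replicate 1 and KI-FL replicate 4, while the other 8 KI mice lay within it. Npy ranged from 28.3 to 58.5 CPM in WT mice, with a median of 41.2. It was lowest in those same 4 mice, at 17.0 and 5.04 CPM in KI-96 replicates 1 and 3, 7.78 CPM in KI-571 replicate 1 and 18.4 CPM in KI-FL replicate 4, and ranged from 28.4 to 54.2 CPM in the other 8. The ratio of Sst to Npy stayed between 1.36 and 2.39 on the log2 scale over all 19 mice.

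The log2 fold change of Sst against WT was -0.62 ± 0.40 (SE, n = 4 and 7) in KI-96, -0.42 ± 0.39 in KI-571, -0.37 ± 0.39 in KI-FL and -0.47 ± 0.29 in all KI mice, with adjusted p of 0.754, 0.926, 0.655 and 0.516. That of Npy was -0.87 ± 0.42, -0.28 ± 0.41, -0.49 ± 0.42 and -0.55 ± 0.31, with adjusted p of 0.679, 0.962, 0.564 and 0.467. None of these differences was larger than the spread between mice. Without KI-96 replicate 3 the values in KI-96 mice were -0.30 for Sst and -0.53 for Npy, and without KI-571 replicate 1 those in KI-571 mice were -0.08 and 0.06. Without KI-FL replicate 4 those in KI-FL mice were -0.21 and -0.31. Other mice left out moved the values the other way. The lowest in KI-96 mice were -1.02 for Sst and -1.25 for Npy, both without KI-96 replicate 4. In KI-571 mice they were -0.575 and -0.543, without KI-571 replicate 2. In KI-FL mice they were -0.465 for Sst, without KI-FL replicate 2, and -0.632 for Npy, without KI-FL replicate 1.

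Over mice, Sst and Npy had the closest relation of any pair. With the genotype means subtracted, Pearson's r of log2 CPM was 0.963 (19 mice, permutation within genotype, two-sided p = 0.0002, adjusted 0.0055 over the 55 relations computed) and Spearman's rho 0.881 (permutation p = 0.00122, adjusted 0.0509). Leaving out KI-96 replicate 3 and KI-571 replicate 1, r was 0.841. The genes nearest to Sst in this measure among all tested genes were Npy, Acyp2 with r = 0.957 and Dpm2 with r = 0.948, and those nearest to Npy were Sst, Dpm2 with r = 0.961 and Slc50a1 with r = 0.959. Without the same 2 mice, Sst had r = 0.795 with Acyp2 and 0.893 with Dpm2, and Npy had r = 0.894 with both Dpm2 and Slc50a1.

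Nos1, which encodes the neuronal nitric oxide synthase of the same cells, did not follow Sst and Npy. It lies on chromosome 5 (117781032 to 117958840, plus strand) with 11151 bases of exon, the longest of the 10 genes, of which 2.4% are shared with an antisense gene. In WT mice it ranged from 65.2 to 77.8 CPM, with a median of 69.7. The mice lowest for Sst were among the highest for Nos1, with 107 CPM in KI-96 replicate 3 and 94.2 CPM in KI-571 replicate 1, beside 95.8 CPM in KI-96 replicate 2. The log2 ratio of Sst to Nos1 was -1.99 and -2.03 in the first and second of these mice, against 0.37 to 1.35 in WT mice. Pearson's r of Sst with Nos1 over the 19 mice was -0.701 (permutation p = 0.0518, adjusted 0.238), and -0.306 without those 2 mice.

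In KI-96 mice the log2 fold change of Nos1 was 0.32 ± 0.12 (adjusted p = 0.629), with 85.4, 95.8, 107 and 63.3 CPM in replicates 1 to 4, so that 3 of 4 mice lay above all WT mice and the other below them. It was 0.21 without KI-96 replicate 3. In KI-571 and KI-FL mice it was 0.11 ± 0.12 and 0.13 ± 0.12 (adjusted p of 0.951 and 0.618), and in all KI mice 0.19 ± 0.09 (adjusted p = 0.404). The genes nearest to Nos1 over mice were Sipa1l1 and Slc8a3, both with r = 0.933, and Epb41l1 with r = 0.928. Of the other markers of this class, Chodl, a lectin-like membrane protein, had 3.04 CPM in KI-96 replicate 3 and 3.17 CPM in KI-571 replicate 1, within the 1.48 to 3.64 CPM of all mice. Cort, which encodes the somatostatin-like peptide cortistatin, reached at most 3.07 CPM, in WT replicate 3, and Rbp4 had 6.34 and 12.5 CPM in those 2 mice against 8.78 to 17.9 CPM in WT mice.

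**Figure D3:**
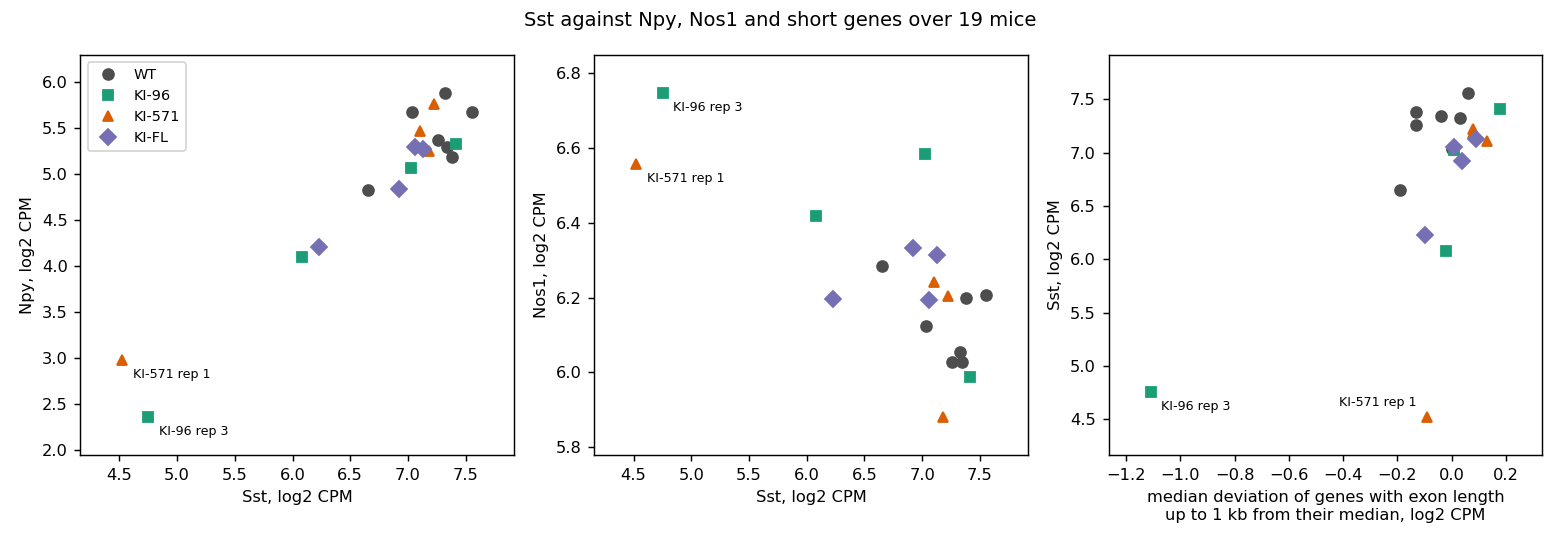
Level of Npy (left) and Nos1 (middle) against Sst, and of Sst against the median deviation of genes with up to 1 kb of exon (right), all in log2 CPM, each point being 1 of the 19 mice. KI-96 replicate 3 and KI-571 replicate 1 lie lowest for Sst and Npy and high for Nos1, and KI-96 replicate 3 alone lies at -1.11 for short genes, where KI-571 replicate 1 lies at -0.09.

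The 2 mice with the lowest Sst differed in their libraries. KI-96 replicate 3 was the library with the largest share of reads matching no counted feature and with the short genes at -1.11. In it, genes with over 8 kb of exon deviated by 0.28. In KI-571 replicate 1 the corresponding values were -0.09 and 0.06, within the range of the other mice for short genes. Among projection neuron genes, the opioid peptide gene Penk had 335 CPM in KI-96 replicate 3, the lowest of all mice, and 809 CPM in KI-571 replicate 1, close to the median of 802. The part of library quality in the Sst and Npy values was not tested.

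Lhx6, a homeodomain transcription factor of interneurons born in the medial ganglionic eminence, which include the Sst and Pvalb cells, varied little. It ranged from 21.6 to 25.7 CPM in WT mice and was 20.2 CPM in KI-96 replicate 3 and 20.9 CPM in KI-571 replicate 1. Its highest level was 35.9 CPM in KI-FL replicate 4, with 23.0 to 24.8 CPM in the other KI-FL mice. Against WT its log2 fold change was 0.06 ± 0.14, -0.13 ± 0.14 and 0.20 ± 0.14 in the 3 lines, in the same order, and 0.04 ± 0.11 in all KI mice (adjusted p of 0.955, 0.946, 0.480 and 0.902). Without KI-FL replicate 4 the value was 0.03 in KI-FL and -0.012 in all KI mice, and without KI-96 replicate 3 it was 0.14 in KI-96 mice. Lhx6 lies on chromosome 2 (36081953 to 36105408, minus strand). The nearest genes were Gm13509 with r = 0.828, Arhgap19 with r = 0.809 and the pseudogene Rpl17-ps10 with r = 0.806, the weakest nearest relations of the 10 genes. Without KI-571 replicate 4 and KI-FL replicate 4 these were 0.7, 0.74 and 0.736.

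Pvalb, which encodes the calcium buffer parvalbumin of fast-spiking interneurons, lies on chromosome 15 (78191114 to 78206400, minus strand). It ranged from 34.6 to 118 CPM in WT mice with a median of 89.1. WT replicates 1 to 3 had 34.6 to 49.9 CPM, and WT replicates 4 to 7 had 89.1 to 118 CPM. Among KI-96 mice it was 61.2, 55.3, 34.1 and 117 CPM, among KI-571 mice 42.4, 44.8, 87.4 and 65.3 CPM, and among KI-FL mice 30.5, 66.9, 65.3 and 35.6 CPM, so that every KI genotype overlapped WT. The log2 fold change was -0.21 ± 0.34 in KI-96, -0.37 ± 0.34 in KI-571, -0.64 ± 0.34 in KI-FL and -0.41 ± 0.25 in all KI mice (adjusted p of 0.925, 0.919, 0.348 and 0.511). Without KI-96 replicate 3 the first of these was 0.009. Its nearest genes over mice were Ramp3, a calcitonin receptor modifier, with r = 0.913, Vamp1, a synaptic vesicle protein, with r = 0.888, and Inhbb with r = 0.886. The pallidal markers Npas1, Kcng4, Gbx1 and Nkx2-1, the last of which interneurons also express, summed to 18.3 to 48.0 CPM over the 19 mice, and the highest sums, 48.0 CPM in WT replicate 4 and 47.7 CPM in KI-96 replicate 4, belonged to the mice with the highest Pvalb. The part of pallidal tissue in the Pvalb values was not tested.

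Pthlh, which encodes a parathyroid hormone-like peptide found in fast-spiking and related striatal interneurons, ranged from 3.11 to 7.001 CPM in WT mice. Its lowest value was 1.74 CPM in KI-96 replicate 3 and its highest 9.29 CPM in KI-96 replicate 2, and the 4 KI-571 mice lay between 4.66 and 6.30 CPM. In KI mice the log2 fold change was 0.38 ± 0.30, 0.30 ± 0.30 and 0.21 ± 0.31 in the 3 lines and 0.30 ± 0.23 in all KI mice (adjusted p of 0.810, 0.932, 0.756 and 0.626). Without KI-96 replicate 3 the value in KI-96 mice was 0.68. Creld2 with r = 0.921, Ttyh1 with r = 0.901 and Krt10 with r = 0.900 were nearest to it, and without KI-96 replicates 2 and 3 these were 0.909, 0.677 and 0.654. Pthlh lies on chromosome 6 (147252101 to 147264183, minus strand).

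Of the 7 genes listed for the parvalbumin and Pthlh class, none passed the adjusted threshold against WT. At an unadjusted p under 0.05 there were 4 in KI-571 mice, 3 in KI-FL mice, 3 in all KI mice and 0 in KI-96 mice, all with values below 0, beside the 7.72%, 16.7%, 12.9% and 7.45% of all tested genes. In KI-571 mice these were Syt2, a synaptic vesicle calcium sensor, at -0.49 (adjusted p = 0.263), Erbb4, the neuregulin receptor, at -0.41 (adjusted p = 0.269), and the potassium channels Kcnc2 at -0.73 (adjusted p = 0.505) and Kcnc1 at -0.31 (adjusted p = 0.517). The median of the list was -0.37 in KI-571, -0.29 in KI-FL, -0.24 in all KI and -0.02 in KI-96 mice. The pallidal markers summed to 18.3, 20.9, 35.9 and 20.5 CPM in KI-571 mice, which overlapped the 19.6 to 48.0 CPM of WT mice. Their relation to the values of this list was not tested.

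Calb2, which encodes the calcium buffer calretinin, lies on chromosome 8 (110137502 to 110168210, minus strand). It ranged from 1.82 to 10.02 CPM in WT mice, with a median of 6.30. As for Pvalb, WT replicates 1 to 3 were lower, at 1.82 to 5.62 CPM, than WT replicates 4 to 7, at 6.30 to 10.02 CPM. In KI-571 mice it was 1.92, 2.50, 3.40 and 3.38 CPM, in KI-96 mice 4.76, 3.01, 8.19 and 17.6 CPM, and in KI-FL mice 3.52, 3.96, 18.2 and 11.9 CPM. All 4 KI-571 mice were thus below all 4 KI-FL mice, the only comparison in which the ranges of 2 genotypes did not overlap for any of the 10 genes, and 4.32% of all tested genes did not overlap there. The log2 fold change against WT was -1.19 ± 0.50 in KI-571 (adjusted p = 0.547), 0.40 ± 0.46 in KI-96 (adjusted p = 0.883), 0.56 ± 0.46 in KI-FL (adjusted p = 0.547) and -0.08 ± 0.35 in all KI mice (adjusted p = 0.951).

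Between the KI lines, edgeR and DESeq2 each called 0 of the 10 genes, and edgeR called 0.0054% of all tested genes between KI-96 and KI-571, 0% between KI-96 and KI-FL and 0.0864% between KI-571 and KI-FL, where DESeq2 called 0.189%, 0.205% and 0.475%. At an unadjusted p under 0.05 edgeR gave 1, 0 and 1 of the 10 genes, beside 5.51%, 8.9% and 8.9% of all genes, and the gene was Calb2 each time. Its log2 fold change was 1.60 ± 0.55 between KI-96 and KI-571 (adjusted p = 0.664), -1.75 ± 0.55 between KI-571 and KI-FL (adjusted p = 0.357) and -0.16 ± 0.52 between KI-96 and KI-FL (adjusted p = 0.943). Without KI-96 replicate 4 the first of these was 0.93, and without KI-FL replicate 3 the second was -1.19. The median of the 10 genes was 0.12, 0.19 and 0.07 in KI-96 against KI-571, KI-96 against KI-FL and KI-571 against KI-FL.

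The gene nearest to Calb2 over mice was Nr2f2, a nuclear receptor of thalamic and of some interneuron lineages, with r = 0.898, and 0.899 without KI-96 replicate 4 and KI-FL replicate 3. Adgra1 with r = 0.888 and Irx1 with r = 0.885 followed. The 5 genes listed for subcortical glutamatergic and thalamic neurons summed to 105 CPM in KI-96 replicate 4, 50.3 CPM in KI-96 replicate 3 and 43.1 CPM in KI-FL replicate 3, against 3.98 to 35.1 CPM in the other mice, and the defining transporter gene Slc17a6 was highest in the first of them, at 45.8 CPM. In KI-FL replicate 4, which had 11.9 CPM of Calb2, that sum was the lowest of all mice at 3.98 CPM. This was the library with 3186 tested genes at 0, and Lhx9, Shox2 and Gbx2 of this list had 0 counts in it. The sum was 11.4 to 32.5 CPM in KI-571 mice, against 8.34 to 35.1 CPM in WT mice. The part of neighbouring tissue in the Calb2 values was not tested.

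Cck and Vip, which encode the peptides cholecystokinin and vasoactive intestinal peptide, had their highest levels in the library with the most cortical RNA. Cck was 153 CPM in WT replicate 3 and between 7.54 and 20.6 CPM in the other 6 WT mice, and the next highest mice were KI-571 replicate 2 with 58.1 CPM and KI-96 replicate 4 with 38.0 CPM. Vip was 8.56 CPM in WT replicate 3 and between 0.75 and 2.22 CPM in the other WT mice, with 3.39 CPM in KI-571 replicate 2. Slc17a7, the vesicular glutamate transporter of cortical neurons, was at 819 and 329 CPM in these 2 mice, against a median of 31.2 CPM over the 19 mice.

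The level of Cck followed the cortical excitatory score, the mean log2 CPM of 10 tested cortical genes, with r = 0.897 (19 mice, permutation within genotype, p = 0.00015, adjusted 0.0055) and rho = 0.709 (permutation p = 0.00185, adjusted 0.0509). Without WT replicate 3 and KI-571 replicate 2, r was 0.675. For Vip r was 0.743 (permutation p = 0.00291, adjusted 0.0400) and rho 0.582 (permutation p = 0.0174, adjusted 0.110), and r without those 2 mice was 0.449. Vip and Cck were related to each other with r = 0.712 (permutation p = 0.00181, adjusted 0.0332) and rho = 0.626 (permutation p = 0.00768, adjusted 0.0704). The nearest genes to Cck were Nxph3 with r = 0.929, Olfm1 with r = 0.919 and Vxn with r = 0.917, and those to Vip were Mapk11 with r = 0.907, the zinc transporter Slc30a3 with r = 0.895 and Sept9 with r = 0.889. Without WT replicate 3 and KI-571 replicate 2, those of Cck were 0.804, 0.747 and 0.776. Without WT replicate 3 and KI-FL replicate 4, those of Vip were 0.72, 0.812 and 0.707.

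**Figure D4:**
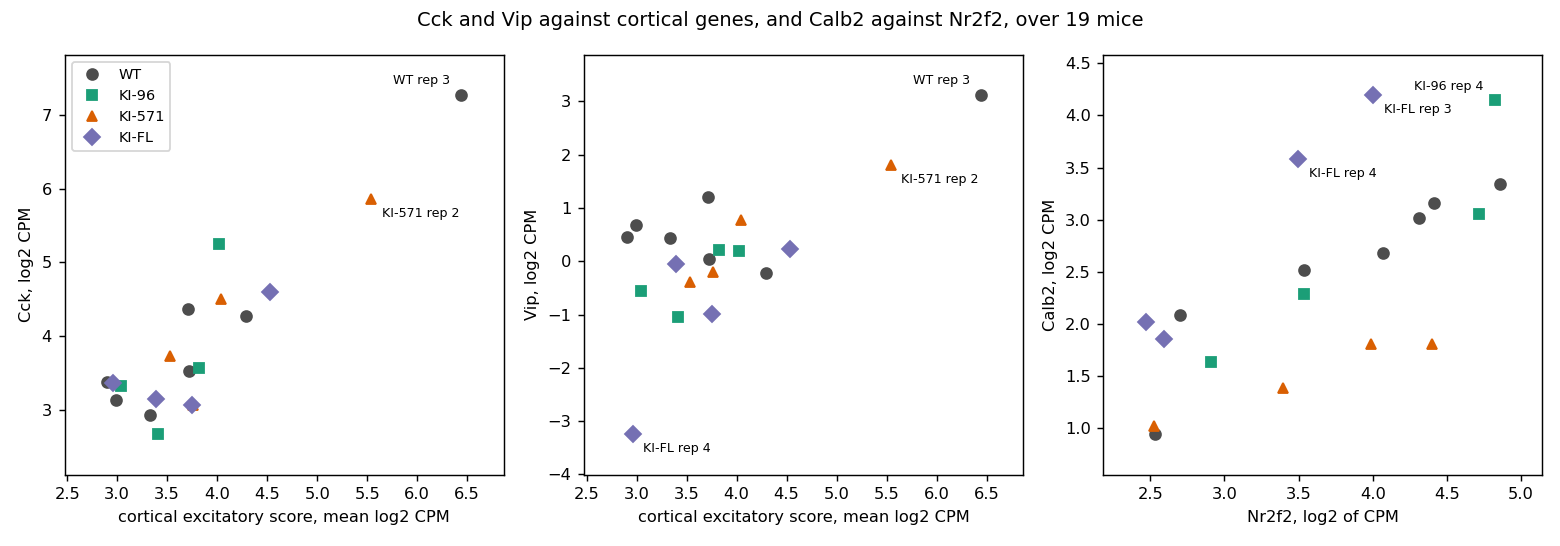
Level of Cck (left) and Vip (middle) against the cortical excitatory score, the mean log2 CPM of 10 tested cortical genes, and of Calb2 against Nr2f2 (right), each point being 1 of the 19 mice. WT replicate 3 and KI-571 replicate 2 lie at cortical scores of 6.44 and 5.54 and hold the highest levels of Cck and Vip, and the 3 mice with the highest Calb2 are named.

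Vip had the lowest level of the 10 genes, with 0 to 145 counts per mouse. The 0 counts were in KI-FL replicate 4, the library with 3186 tested genes at 0. By counting error alone they allow up to 0.196 CPM, which does not cover other losses in that library. The other KI-FL mice had 0.86, 0.40 and 1.06 CPM and the KI-96 mice 0.58, 1.05, 0.38 and 1.03 CPM. The log2 fold change of Vip was -1.60 ± 0.73 in KI-96 (adjusted p = 0.653), -0.54 ± 0.68 in KI-571 (adjusted p = 0.957), -1.96 ± 0.76 in KI-FL (adjusted p = 0.202) and -1.37 ± 0.51 in all KI mice (adjusted p = 0.256). Without WT replicate 3 these 4 values were -0.79, 0.27, -1.16 and -0.56. With each mouse left out, the value in KI-FL mice ranged from -2.46 to -1.16. Between KI-96 and KI-FL it was 0.36, and -0.048 without KI-FL replicate 4. The smallest adjusted p of any of the 10 genes under DESeq2 was 0.0755, for Vip in KI-FL mice. Under edgeR the smallest in KI-FL mice was 0.202 with all mice and 0.384 without the 3 libraries that stood apart.

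For Cck the log2 fold change was -0.97 ± 0.76 in KI-96, -0.36 ± 0.74 in KI-571, -1.34 ± 0.78 in KI-FL and -0.89 ± 0.54 in all KI mice (adjusted p of 0.802, 0.978, 0.393 and 0.508). Without WT replicate 3 they were 0.36, 0.97, -0.01 and 0.44, so that 1 WT mouse set the direction of the first, second and last of them. Vip lies on chromosome 10 (5639218 to 5647617, plus strand) and Cck on chromosome 9 (121489824 to 121495694, minus strand). In the list for the calretinin, Vip and Cck class, 0 of 7 genes passed the adjusted threshold against WT in any genotype, with 2 at an unadjusted p under 0.05 in KI-571 mice (7.72% of all genes) and 1 each in KI-96 (7.45%), KI-FL (16.7%) and all KI mice (12.9%). The additional gene in KI-571 mice was Adarb2, an RNA-binding protein of this class, at -0.58 (adjusted p = 0.493).

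Th, which encodes the rate-limiting enzyme of dopamine synthesis and marks a small class of striatal interneurons, lies on chromosome 7 (142892752 to 142931128, minus strand). It ranged from 4.43 to 7.37 CPM in WT mice, with a median of 5.31. In KI-96 mice it was 7.94, 6.21, 3.09 and 5.25 CPM, in KI-571 mice 5.43, 3.09, 5.59 and 3.76 CPM, and in KI-FL mice 5.18, 5.54, 5.11 and 1.501 CPM. The lowest 3 of these were KI-FL replicate 4, the library with most genes at 0, KI-96 replicate 3 and KI-571 replicate 2. Against WT the log2 fold change was -0.04 ± 0.30, -0.37 ± 0.30 and -0.42 ± 0.30 in the 3 lines and -0.28 ± 0.22 in all KI mice (adjusted p of 0.984, 0.888, 0.499 and 0.638). Without KI-96 replicate 3 the value in KI-96 mice was 0.16, and without KI-FL replicate 4 those in KI-FL and all KI mice were -0.13 and -0.18. The nearest gene was Zdhhc7 with r = 0.934, before Srprb with r = 0.881 and Plrg1 with r = 0.872, and without KI-96 replicate 3 and KI-FL replicate 4 these were 0.785, 0.57 and 0.523.

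The other genes of dopamine handling were Ddc, which makes dopamine from its precursor, with 6.96 to 16.1 CPM over all mice, and the vesicular transporter Slc18a2, with 2.68 to 9.87 CPM. Slc18a2 had an unadjusted p under 0.05 in KI-FL mice at -0.57 (adjusted p = 0.216), beside 16.7% of all tested genes. Its lowest level, 2.68 CPM, was in KI-FL replicate 4, the library with most genes at 0. Of the markers of midbrain dopamine neurons, whose axons but not cell bodies lie in the striatum, the dopamine transporter gene Slc6a3 reached at most 0.54 CPM, and En1, Pitx3 and Foxa1 at most 0.18, 0.25 and 0.37 CPM. Aldh1a1, the remaining gene of these 5, was at 21.6 to 69.3 CPM in every mouse.

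**Figure D5:**
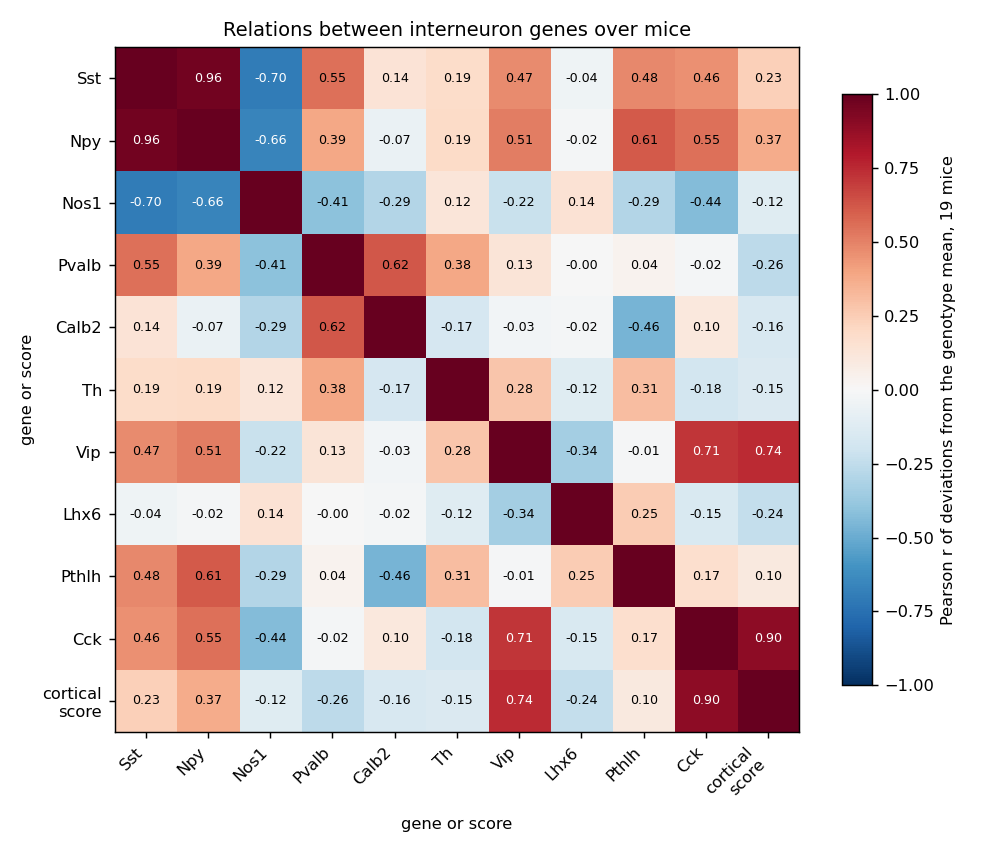
Pearson's r between the 10 interneuron genes and the cortical excitatory score over the 19 mice, after the genotype means of log2 CPM were subtracted. Sst and Npy form the closest pair at 0.96, Cck and Vip lie at 0.90 and 0.74 with the cortical score, and Nos1 lies at -0.70 with Sst.

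Of the 45 pairs of interneuron genes, 2 passed an adjusted p under 0.05 by Pearson's r, Sst with Npy and Vip with Cck, and none of the 55 relations passed by Spearman's rho. Genes of 1 library share its depth and its dissection. Pvalb with Calb2 (r = 0.620, permutation p = 0.0161, adjusted 0.0981) and Sst with Pvalb (r = 0.553, permutation p = 0.0115, adjusted 0.09) did not pass.

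Genes that interneurons of several classes share were examined as lists, and no gene of any of them passed the adjusted threshold of edgeR in any comparison with all mice in the fit. DESeq2 called 1 gene, the somatostatin receptor Sstr1 in KI-FL mice, where it called 2.75% of all tested genes. With the 3 libraries that stood apart left out, edgeR called 1 of the 97 tested listed genes against WT, Sox6 in all KI mice. In that comparison it called 468 of all 18746 tested genes. Among the interneuron transcription factors, Dlx1, which regulates the migration and differentiation of GABA neurons, had an unadjusted p under 0.05 in KI-96 mice, at -0.53 (adjusted p = 0.535). Of all tested genes, 7.45% had such an unadjusted p there. Sox6, required for Sst and Pvalb cells, had the smallest p of this list in all KI mice, at -0.28 ± 0.10 (adjusted p = 0.253), and was at -0.43 in KI-571 (adjusted p = 0.301) and -0.34 in KI-FL mice (adjusted p = 0.213). Without the 3 libraries it was at -0.38 in all KI mice (adjusted p = 0.0362), and without 1 of them at a time the adjusted p was 0.133 to 0.216. In all KI mice Dlx1 was at -0.21 (adjusted p = 0.440). The list's median was between -0.13 and 0.03 in the 4 comparisons with WT.

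The genes of GABA synthesis and release, which projection neurons express as well, were abundant, with 193 to 906 CPM over genes and mice. Gad1, the main GABA-synthesising enzyme, was at -0.24 ± 0.10 in all KI mice (adjusted p = 0.318), and the vesicular transporter Slc32a1 was at 0.20 ± 0.10 (adjusted p = 0.431). Of the 15 receptors for the signals of these interneurons, 1 had an unadjusted p under 0.05 in KI-FL mice, beside 16.7% of all tested genes, the somatostatin receptor Sstr1 at -1.15 (adjusted p = 0.146). DESeq2 gave Sstr1 -1.17 there (adjusted p = 0.0392), and without KI-FL replicate 4 edgeR gave -0.81 (adjusted p = 0.259). In all KI mice Sstr1 was at -0.70 ± 0.26 (adjusted p = 0.261) and the neuropeptide Y receptor Npy2r at -0.33 (adjusted p = 0.504). Sstr1 ranged from 0.46 to 9.44 CPM, lowest in KI-FL replicate 4 and highest in WT replicate 3, the libraries with most genes at 0 and with most cortical RNA. For the peptide class, Cort had the smallest p after Nos1 in all KI mice, at -1.13 (adjusted p = 0.423), and without the 3 libraries that stood apart it was at -0.001.

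Markers of other cell types in the dissected tissue passed no adjusted threshold against WT either. By their smallest p in all KI mice these included Tbr1 at -1.75 (adjusted p = 0.291) of cortex, which was 0.23 without WT replicate 3, Npas1 at -0.42 (adjusted p = 0.454) and Kcng4 at -0.57 (adjusted p = 0.490) of pallidum, and Tcf7l2 at 0.38 (adjusted p = 0.671) and Lhx9 at 0.64 (adjusted p = 0.791) of thalamus. Cholinergic interneurons, the other local neurons of the striatum, gave Slc18a3 at 0.31 (adjusted p = 0.441) and Chat at -0.16 (adjusted p = 0.518). Projection neurons gave Penk at -0.27 (adjusted p = 0.438) and Bcl11b at 0.20 (adjusted p = 0.467), hypothalamic peptides Avp at -0.75 (adjusted p = 0.65) and Trh at -0.38 (adjusted p = 0.698), and Aldh1a1, the only tested midbrain marker, was at -0.23 (adjusted p = 0.466).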

How the data were processed

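Striatal RNA of 19 mice was sequenced, and genotype and replicate number were taken from the labels. The deposited values are raw counts of reads on each gene, to which the authors applied no normalization. By the methods and the labels, they trimmed adapters, aligned reads to GRCm38 with STAR and counted them with HTSeq. Versions, annotation and strand setting are not given in the sources used here, so that reads of overlapping genes could have been shared. The HTSeq summary lines were kept out of library sizes (the share matching no counted feature was 11.1% to 24.2%), and 4 columns that belong to no mouse were not used.

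From the counts, TMM factors were computed, genes with few reads were dropped by filterByExpr (count of at least 10, total of at least 15) and all mice were fitted together in edgeR 4.0.16 (R 4.3.3) with a coefficient per genotype, without covariates, because the sacrifice batch used in the study is not in the labels. Quasi-likelihood F-tests were adjusted by the Benjamini-Hochberg method over 18521 genes in each comparison, with a threshold of 0.05. All 7 WT mice were kept, since the WT sample the study removed is not named. Standard errors and 95% intervals come from this fit. Relations over mice were tested with 100000 permutations within genotype. Gene symbols were matched for 54079 identifiers, and exon lengths came from GENCODE mouse release 21. RefSeq promoter sequences were matched by symbol for 9 of the 10 genes.

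The 10 genes and all lists were chosen with earlier results of these data known. Named were the 10 genes in every comparison, the 2 genes of each list with the smallest p in all KI against WT, any listed gene past the threshold and, for each of the 10, the 3 genes with the highest r over mice. Some listed genes that this rule names are not reported here. Genes named for an unadjusted p, and Chodl, Rbp4, Ddc, Slc6a3, En1, Pitx3, Foxa1, Slc17a7 and Slc17a6, were chosen after their values were seen. The procedures were tested on simulated data. Alternatives included DESeq2 1.42.0, other filters and covariates, a replicate block and leaving out each mouse.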

Additional observations from a re-analysis of the deposited data

Results flagged for a closer look

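In 6 of 44 groups of mice a single mouse lay far from the rest of its genotype (2.2 are expected by chance at 1 in 20), and these concerned 5 interneuron genes and the cortical score. Sst was lowest in KI-571 replicate 1, at 4.52 log2 CPM against 7.11 to 7.22 in the other KI-571 mice. Cck was highest in WT replicate 3, at 7.26 against 2.93 to 4.37 in the other WT mice, and so was Vip, at 3.11 against -0.23 to 1.21. The cortical excitatory score was highest in the same mouse, at 6.44 against 2.90 to 4.29. In KI-FL replicate 4, the library with 3186 tested genes at 0, Th was lowest, at 0.68 against 2.38 to 2.50, and Lhx6 was highest, at 5.17 against 4.53 to 4.64.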

How the results depend on the processing

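Under every alternative run, 0 of the 10 interneuron genes passed the threshold in each of the 7 comparisons, DESeq2, its size factors in edgeR, both other filters (9 genes were left with at least 10 counts in every mouse, without Vip), an adjusted threshold of 0.1, only the compared groups, the covariates, either WT subset and each mouse left out included. The smallest adjusted p was 0.0755. All KI against WT has no separate fit of only its groups. With the replicate block, again 0 of 10 passed in each. Deviations of same-numbered mice had correlations from -0.128 to 0.29 (24 pairs, 5 over 0.1). Differently numbered mice were not compared, so whether same-numbered mice varied together was not tested.

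Fold changes, none of them past the threshold, changed sign in 39 of 1226 values against WT and in 33 of 927 between KI lines. With the replicate block the log2 fold change of Pvalb was 0.14 in KI-96 and 0.019 in KI-571 mice, and that of Calb2 0.15 in all KI mice. With the cortical score as a covariate Cck was 0.12 in KI-96 mice. With Xist as a covariate Calb2 was 0.10 in all KI mice and 0.32 between KI-96 and KI-FL. With WT replicates 1 to 4 alone Pvalb was 0.10 in KI-96 and Calb2 0.17 in all KI mice. With WT replicates 5 to 7 alone Th was 0.029 in KI-96 and Vip 0.023 in KI-571 mice, and Cck was 0.38, 0.99 and 0.017 in the 3 lines and 0.46 in all KI mice. Without the 3 libraries that stood apart, an alternative chosen after seeing the data, Th was 0.11 in KI-96, Vip 0.26 in KI-571, Lhx6 -0.006 in all KI, and Cck 0.64, 0.97, 0.10 and 0.57.

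With each mouse left out, the range was -0.63 to 0.009 for Pvalb, -0.25 to 0.16 for Th, -0.077 to 0.14 for Lhx6, -0.26 to 0.68 for Calb2 and -1.82 to 0.36 for Cck in KI-96. In KI-571 it was -1.20 to 0.27 for Vip, -1.16 to 0.97 for Cck, -0.54 to 0.058 for Npy and -0.021 to 0.21 for Nos1. In all KI mice it was -1.17 to 0.44 for Cck, -0.30 to 0.059 for Calb2 and -0.012 to 0.074 for Lhx6, and between KI-96 and KI-FL it was -0.82 to 0.40 for Calb2. The cause of these changes of sign was not tested. Group sizes of 4 and counts as low as those of Vip limit what could be called.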
